A study of Mus musculus with 6 samples.

Results

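The genes of MHC class II antigen presentation were followed in colonic tissue of mice with colitis. The members were chosen by name: the chain genes H2-Aa, H2-Ab1 and H2-Eb1, the invariant chain gene Cd74, the peptide loading genes H2-DMa, H2-DMb1, H2-DMb2 and H2-Oa, and the regulator Ciita. These are 9 of the 27202 genes in the deposited table, and all 9 were measured in every library. RNA sequencing was performed on 3 colon libraries of Nedd4l fl/fl Villin Cre mice (labelled cKO) and 3 of Nedd4l fl/fl littermates (labelled WT). Both genotypes were on the C57BL/6J background, 8 to 10 weeks old, and drank 2% dextran sulfate sodium (DSS), a polysaccharide that injures the colonic epithelium. The samples are recorded with 7 days of DSS, whereas the paper dates the tissue to day 7 and does not say how long these mice drank it. No mouse without DSS was compared here. The Villin promoter drives Cre in intestinal epithelial cells, whereas the RNA came from the whole tissue with its immune and stromal cells. The labels do not state that each library is a separate mouse, so p-values measure the spread between these libraries, which may be technical. The question was whether class II genes differed when the ubiquitin ligase gene Nedd4l was deleted from the epithelium of the injured colon.

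MHC class II molecules are pairs of an α and a β chain that show peptides from proteins taken up by a cell to CD4+ T cells. Cd74 fills the groove of the new pair and escorts it to the endosome, where cathepsins cut Cd74 down, H2-DM exchanges the remaining fragment for a peptide, and H2-O, which is mostly made by B cells, restrains H2-DM. Ciita is the coactivator that switches the whole set on by joining factors bound to the X and Y boxes of their promoters. B cells, dendritic cells and many macrophages use the set constantly, and the epithelium of the inflamed gut can be induced to use it by interferon γ.

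Of the members, 7 lie in 1 stretch of the MHC on mouse chromosome 17 (GRCm38, chr17:34092340-34316199, 223.86 kb). In their order along the chromosome these are H2-Oa (chr17:34092340-34095234), H2-DMa (chr17:34135182-34139101), H2-DMb2 (chr17:34143307-34151553), H2-DMb1 (chr17:34153072-34160230), H2-Ab1 (chr17:34263209-34269418), H2-Aa (chr17:34282744-34287827, minus strand) and H2-Eb1 (chr17:34305877-34316199). Ciita (chr16:10480059-10528418) and Cd74 lie elsewhere. Promoter sequence from RefSeq on GRCm38.p6, 250 bases before to 50 bases after the start, was matched for 6 of the 9 members. Windows of 62 bases are shown for the 5 with a Y box, and for H2-Ob and H2-Eb2, a pair of further class II chain genes. They are shown because these genes fell into 2 sets, lowest and highest in the library cKO1. Capitals mark every match on the strand of the gene to the Y box TGATTGG, the X box AACNGATG or the X2 box TGACGTCA.
H2-Eb1, chr17:34305761-34305822, plus strand: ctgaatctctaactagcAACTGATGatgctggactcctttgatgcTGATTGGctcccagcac
H2-Aa, chr17:34287857-34287918, minus strand: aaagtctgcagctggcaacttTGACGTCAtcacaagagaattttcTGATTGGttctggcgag
H2-DMb1, chr17:34153083-34153144, plus strand: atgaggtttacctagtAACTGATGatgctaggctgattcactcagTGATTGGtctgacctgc
H2-DMb2, chr17:34145112-34145173, plus strand: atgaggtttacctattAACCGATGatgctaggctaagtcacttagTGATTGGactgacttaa
H2-Oa, chr17:34092289-34092350, plus strand: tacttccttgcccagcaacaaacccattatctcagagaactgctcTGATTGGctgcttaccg
H2-Ob, chr17:34238801-34238862, plus strand: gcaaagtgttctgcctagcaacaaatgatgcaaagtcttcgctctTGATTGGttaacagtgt
H2-Eb2, chr17:34325528-34325589, plus strand: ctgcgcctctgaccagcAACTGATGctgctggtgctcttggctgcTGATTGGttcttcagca

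Searched on both strands, the Y box was present in 5 of the 6 member promoters and in 7.817% of all 32851 windows of the same length. The X box was present in 3 of the 6 and in 2.32% of all windows. It began 89 bases before the start in H2-Eb1, 92 in H2-DMb1 and 121 in H2-DMb2, and each time a Y box followed, at 61, 63 and 92 bases before the start. The X2 box was present in H2-Aa and in 1.79% of all windows. Both the Y box and the X box were found in 61 of all windows, or 0.1857%. The motif letters were written, and those of the X box shortened, with these promoters in view, so the shares describe how rare the letters are and test nothing. The H2-DMb1 and H2-DMb2 windows were identical at 53 of 62 bases, whereas those of H2-Eb1 and H2-Eb2 were identical at 42. H2-DMa had a window with no match to the 3 motifs. The starts are those of RefSeq. For every gene shown except H2-Eb1 the deposited table begins the gene further upstream, though only slightly for H2-Aa, H2-Ob and H2-Eb2.

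Nedd4l was lower in every cKO library, at 476, 942 and 566 normalized counts (read numbers scaled by a size factor for each library), than in the WT libraries, at 1241, 1271 and 1266. The log2 fold change was -0.99 (SE 0.24, adjusted p = 0.225 by limma over all genes), and the groups did not overlap. The adjusted p was 0.0131 without cKO2, with a log2 fold change of -1.28, and 0.0212 with array weights. It was 0.226 without cKO1, 0.511 without cKO3, and between 0.383 and 0.512 when 1 WT library was left out. The library cKO2 held the most Nedd4l of the 3 cKO libraries. Its mean correlation over genes was 0.977 with the WT libraries and 0.966 with the other cKO libraries. The latter mean includes cKO1, whose own means were the lowest of all libraries, at 0.948 with WT and 0.963 with the other cKO libraries. These means therefore do not show whether cKO2 was closer to WT than to cKO3. Library totals, in units of the smallest value of each library, were between 14914367 and 17547270. Across the whole table limma on log2(normalized count + 1) placed 0 of 16246 genes past an adjusted p of 0.05, whereas 2273 genes (14.0%) had an unadjusted p under 0.05 and 3473 (21.4%) had groups that did not overlap.

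Levels of different genes were compared per kilobase of gene length as listed, and depend on that length. Cd74 was the highest member at 15922 ± 3375 normalized counts per kb (SD, n = 6 libraries). H2-Eb1 at 4519 ± 798, H2-Ab1 at 4500 ± 937 and H2-Aa at 4186 ± 1106 followed, with overlapping values. Their order is uncertain, because the listed lengths of 1184, 1637 and 1874 bases differ from those of their longest reference transcripts. These had 1669, 1212 and 1128 bases. H2-DMb1 stood at 782 ± 127 and H2-DMa at 448 ± 68.9. H2-DMb2 at 170 ± 89.7, Ciita at 109 ± 22.4 and H2-Oa at 41.7 ± 24.1 were the lowest. No library of Cd74 came down to the chain genes (3.52-fold apart in their means), and the chain genes did not overlap H2-DMb1 (H2-Aa was 5.35-fold higher). H2-DMb2 overlapped Ciita and Ciita overlapped H2-Oa. The chain genes and Cd74 were thus far above the peptide loading genes.

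No member passed the test between the genotypes. Of the 9 members, 0 passed an adjusted p of 0.05 in either direction (0.0% of all genes did), and 0 had an unadjusted p under 0.05, against 6.91% of all genes higher and 7.08% lower in cKO. None of the 9 had groups that did not overlap, against 10.5% of all genes above and 10.9% below. The log2 fold changes were above 0 for 4 members and below 0 for 5, with a median of -0.09 beside 0.0013 over all genes, and adjusted p-values from 0.374 to 0.845. With 3 libraries against 3, the exact permutation test of a single gene cannot give a p below 0.10. In tissue RNA, fewer cells of a type and less RNA per cell cannot be told apart.

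**Figure D1:**
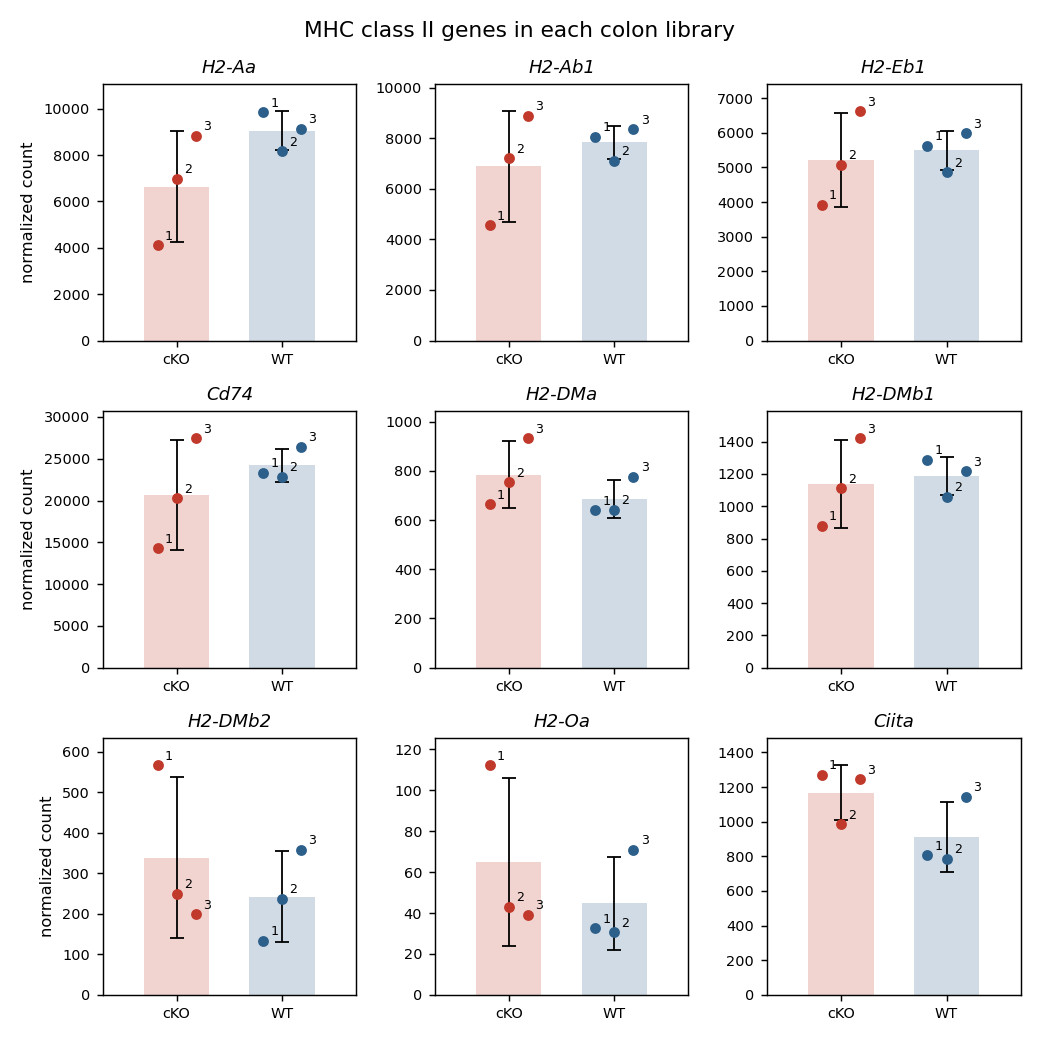
Normalized counts of the 9 class II genes in each library, with 1 panel per gene; points are libraries labelled by replicate number, bars are genotype means and error bars are SD (n = 3). The groups overlap in every panel, and cKO replicate 1 is the lowest library for H2-Aa, H2-Ab1, H2-Eb1, Cd74 and H2-DMb1 and the highest for H2-DMb2, H2-Oa and Ciita.

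The chain genes and Cd74 were lowest in the library cKO1. H2-Aa, the α chain of I-A, was at 4105, 6979 and 8839 normalized counts in cKO and 9841, 8159 and 9140 in WT. Its log2 fold change was -0.51 (SE 0.28, 95% interval -1.19 to 0.17, adjusted p = 0.448). Only cKO3 reached the WT range. H2-Ab1, the β chain of I-A, was at 4558, 7215 and 8889 in cKO and 8055, 7117 and 8362 in WT, and its log2 fold change was -0.24 (SE 0.24, adjusted p = 0.671). H2-Eb1, the β chain of I-E, was at 3921, 5078 and 6625 in cKO and 5625, 4864 and 5987 in WT, a log2 fold change of -0.10 (SE 0.19, adjusted p = 0.824). The α chain gene of I-E, H2-Ea, was not found in the deposited table, so H2-Eb1 does not show that a surface I-E molecule was made. For both β chains the low mean of the cKO group came from cKO1, since the highest of the 6 libraries was cKO3. Cd74, which lies at chr18:60803848-60812646, was at 14281, 20307 and 27448 in cKO and 23341, 22873 and 26447 in WT, with a log2 fold change of -0.28 (SE 0.23, adjusted p = 0.599). Within the cKO group the highest library held 2.15-fold the lowest for H2-Aa, 1.95-fold for H2-Ab1, 1.69-fold for H2-Eb1 and 1.92-fold for Cd74, whereas within WT these folds were 1.21, 1.17, 1.23 and 1.16. The spread between cKO libraries was therefore wider than the distance between the genotype means. Without cKO1 the log2 fold changes became -0.20 for H2-Aa, 0.03 for H2-Ab1, 0.08 for H2-Eb1 and -0.03 for Cd74.

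Of the genes for H2-DM, the peptide editor, the α chain gene H2-DMa was at 664, 755 and 932 normalized counts in cKO and 640, 641 and 777 in WT. Its log2 fold change was 0.18 (SE 0.14, adjusted p = 0.571), which without cKO3 was 0.05 and without cKO1 0.30. H2-DMb1, a β chain gene of H2-DM, was at 879, 1110 and 1420 in cKO and 1287, 1058 and 1215 in WT, a log2 fold change of -0.09 (SE 0.17, adjusted p = 0.845), which without cKO1 was 0.09. H2-DMb2, the neighbouring β chain gene, was at 566, 250 and 199 in cKO and 133, 237 and 357 in WT. Its log2 fold change was 0.44 (SE 0.51, adjusted p = 0.718), and -0.01 without cKO1. The neighbours thus ran in opposite directions in cKO1, where H2-DMb1 was lowest and H2-DMb2 highest of all libraries. Their ratio H2-DMb1/H2-DMb2 ran from 1.55 in cKO1 to 9.65 in WT1. Both genes are uncertain, because 27.2% of the 50-base stretches of the H2-DMb1 transcript also occur in H2-DMb2 and how shared reads were counted is not given. Of the stretches of the H2-DMb2 transcript, 25.2% occur in H2-DMb1. Counted over all 165 other genes that share any with H2-DMb2, the share is 29.5%. None of the other 7 members shared a 50-base stretch with another gene.

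H2-Oa, the α chain of H2-O, was at 112, 43.1 and 39.2 normalized counts in cKO and 32.6, 30.6 and 70.9 in WT. Its log2 fold change was 0.47 (SE 0.49, adjusted p = 0.679), and -0.01 without cKO1. The partner β chain H2-Ob was at 719, 341 and 258 in cKO and 183, 284 and 431 in WT, with a log2 fold change of 0.50 (SE 0.47, adjusted p = 0.653), and 0.07 without cKO1. H2-Eb2, a further β chain gene, was at 208, 123 and 113 in cKO and 43.5, 119 and 154 in WT, with a log2 fold change of 0.61 (SE 0.50, adjusted p = 0.592), and 0.08 without WT1. All 3, like H2-DMb2, were highest in cKO1, followed by WT3 and then cKO2.

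The order of the 6 libraries, which was compared after these values were seen, was the same for H2-DMb2, H2-Ob and H2-Eb2: cKO1, WT3, cKO2, WT2, cKO3, WT1 from high to low. This order was shared by 41 of 16246 genes (0.252%). The summed level of 11 B cell markers had that order too, at 6265, 3046 and 2343 normalized counts in cKO and 1699, 2938 and 4226 in WT. Taken singly, 4 of the 11 markers had it. None of the 11 markers was at 0 in a library, and all 11 were highest in cKO1, as were 24.4% of all genes. Cd79a, a chain of the B cell receptor complex, was at 1010, 574 and 388 in cKO and 411, 490 and 733 in WT. Of the 11 B cell markers, 0 passed the test in either direction, and their median log2 fold change was 0.36. The part of B cells in the levels of H2-DMb2, H2-Oa, H2-Ob and H2-Eb2 was not tested.

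H2-Ab1 and H2-Eb1 shared another order: cKO3, WT3, WT1, cKO2, WT2, cKO1, found for 21 genes (0.129%). The summed level of the 9 dendritic cell markers followed it, at 529, 631 and 762 normalized counts in cKO and 667, 604 and 747 in WT. That sum was mostly Itgax, an integrin of dendritic cells and macrophages, at 229, 244 and 341 in cKO and 254, 244 and 319 in WT, and Itgae, an integrin of some dendritic cells and of intraepithelial T cells, at 104, 191 and 215 in cKO and 201, 172 and 200 in WT. None of the 9 was at 0 in a library. Of the 7 that passed the filter on low values, only 1 (Itgax) had the order of the sum itself. Among these 7, 4 were lowest in cKO1, as were 22.9% of all genes, and 2 were highest there. The median log2 fold change of the 7 was -0.11, and 0 passed the test. The 10 macrophage markers had another order, with sums of 4462, 6674 and 5213 in cKO and 6394, 3270 and 4954 in WT. C1qa, a complement subunit gene of tissue macrophages, was at 993, 1243 and 992 in cKO and 1130, 610 and 956 in WT, and Csf1r, the receptor for the macrophage growth factor, was at 721, 1024 and 992 in cKO and 1096, 650 and 838 in WT. The 9 epithelial markers summed to between 224847 and 257963 in cKO and between 240478 and 262366 in WT, with cKO1 the lowest library. Krt8, a keratin, was at 65762, 79400 and 72809 in cKO and 84713, 85765 and 77503 in WT, and the lectin gene Lgals4 was at 43977, 51352 and 47290 in cKO and 47287, 39778 and 44993 in WT. The part of these cell types in the levels of the class II genes was not tested.

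**Figure D2:**
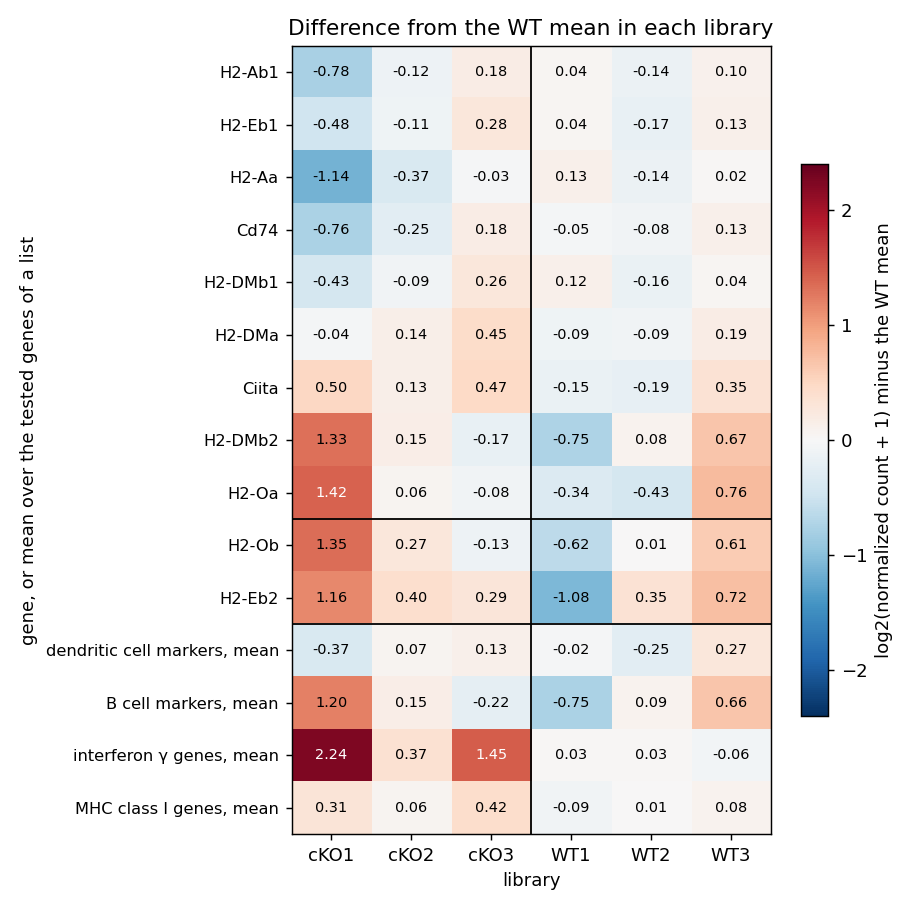
Difference from the WT mean in each library, in log2(normalized count + 1). Rows are the members (top), H2-Ob and H2-Eb2 (middle) and the means of 4 lists (bottom). Each list mean is over all listed genes, including those below the filter on low values. In cKO1 H2-Aa stands at -1.14 and H2-Ab1 at -0.78, while H2-Oa stands at 1.42, H2-DMb2 at 1.33 and the B cell markers at 1.20.

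Ciita was at 1271, 985 and 1244 normalized counts in cKO and 807, 785 and 1143 in WT. The log2 fold change was 0.37 (SE 0.17, 95% interval -0.02 to 0.76, adjusted p = 0.374), the smallest adjusted p among the members, and WT3 lay above cKO2. In cKO1 the coactivator was thus highest of the 6 libraries while H2-Aa, H2-Ab1, H2-Eb1 and Cd74, which it switches on, were lowest. Of the 8 genes for factors that bind class II promoters together with Ciita, 0 had an unadjusted p under 0.05 (14.0% of all genes did). Their median log2 fold change was -0.0074. The 3 with the smallest p were Atf1 (-0.13, adjusted p = 0.530) and Creb1 (0.14, adjusted p = 0.550), both of the factor family that binds the X2 box, and Nfyc (-0.11, adjusted p = 0.568), a subunit of the factor that binds the Y box.

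Regulators upstream of Ciita were examined next. Of 9 such genes, 0 had an unadjusted p under 0.05 (14.0% of all genes did), and the median log2 fold change was 0.33. Irf8, an interferon regulatory factor of myeloid and B cells, was at 3438, 2449 and 2582 normalized counts in cKO and 2015, 2126 and 2537 in WT (log2 fold change 0.33, adjusted p = 0.362). Socs1, a feedback inhibitor of interferon signaling, was at 668, 174 and 352 in cKO and 91.8, 223 and 138 in WT (1.28, adjusted p = 0.376). Both were highest in cKO1, and both had overlapping groups. Without cKO1 the log2 fold changes were 0.18 for Irf8 and 0.80 for Socs1.

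Interferon γ is the main inducer of Ciita outside professional antigen-presenting cells. In its list, of 17 tested genes of 18 listed, 12 had an unadjusted p under 0.05, all higher in cKO (6.91% of all genes were), 12 had every cKO library above every WT library (10.5% of all genes had), and the median log2 fold change was 1.32. None passed an adjusted p of 0.05 by limma. Tgtp2, an interferon-induced GTPase, was at 506, 179 and 288 normalized counts in cKO and 126, 67.5 and 107 in WT (1.60, adjusted p = 0.247). Gbp3, a guanylate-binding protein gene, was at 966, 430 and 662 in cKO and 317, 313 and 340 in WT (1.01, adjusted p = 0.264). The receptor chain gene Ifngr2 was at 2172, 2101 and 2366 in cKO and 1736, 1762 and 1919 in WT (0.29, adjusted p = 0.257). The gene that was not tested was Ifng itself, at 13.4, 3.32 and 7.22 in cKO and 3.95, 2.70 and 0 in WT. Of the 17 genes 16 were highest in cKO1 (24.4% of all genes were), the library in which H2-Aa, H2-Ab1 and H2-Eb1 were lowest. Leaving out cKO2, the library with the most Nedd4l of the cKO group, gave Gbp3 an adjusted p of 0.0328 and a log2 fold change of 1.30, whereas leaving out cKO1 gave 0.190 and 0.72, and leaving out cKO3 gave 0.511 and 0.99.

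Because all genes of a library share its size factor, ratios of 2 members were also compared, which do not depend on it. Of the 36 pairs, 12 had ratios that did not overlap between the genotypes (33.3%), against 20.4% of all pairs of tested genes. The 36 pairs share 9 genes and are not independent, and the exact permutation p of a pair cannot be below 0.10. H2-Aa was in 6 of the 12 pairs, with a lower ratio in cKO each time: to H2-Ab1, H2-Eb1, H2-DMa, H2-DMb1, Cd74 and Ciita. H2-Aa and H2-Ab1 encode the chains of a single molecule, and their ratio was 0.901, 0.967 and 0.994 in cKO and 1.22, 1.15 and 1.09 in WT, so that every cKO ratio lay below every WT ratio. The ratios are of counts not corrected for gene length, so a ratio of 1 does not mark equal levels of the chains. The mean log2 ratio was -0.07 in cKO and 0.21 in WT, a difference of -0.27 (exact permutation p = 0.10, two-sided, the smallest possible). The ratio H2-Aa/H2-Eb1 was 1.05, 1.37 and 1.33 in cKO and 1.75, 1.68 and 1.53 in WT. H2-Aa/Ciita was 3.23, 7.09 and 7.11 in cKO and 12.2, 10.4 and 7.99 in WT, and Cd74/Ciita was 11.2, 20.6 and 22.1 in cKO and 28.9, 29.1 and 23.1 in WT. H2-DMa stood higher in every cKO library relative to H2-DMb1 and to Cd74. By contrast H2-Eb1/H2-DMb1 differed by -0.02 on the log2 scale and overlapped, as did H2-Ab1/Cd74 with a difference of 0.04.

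**Figure D3:**
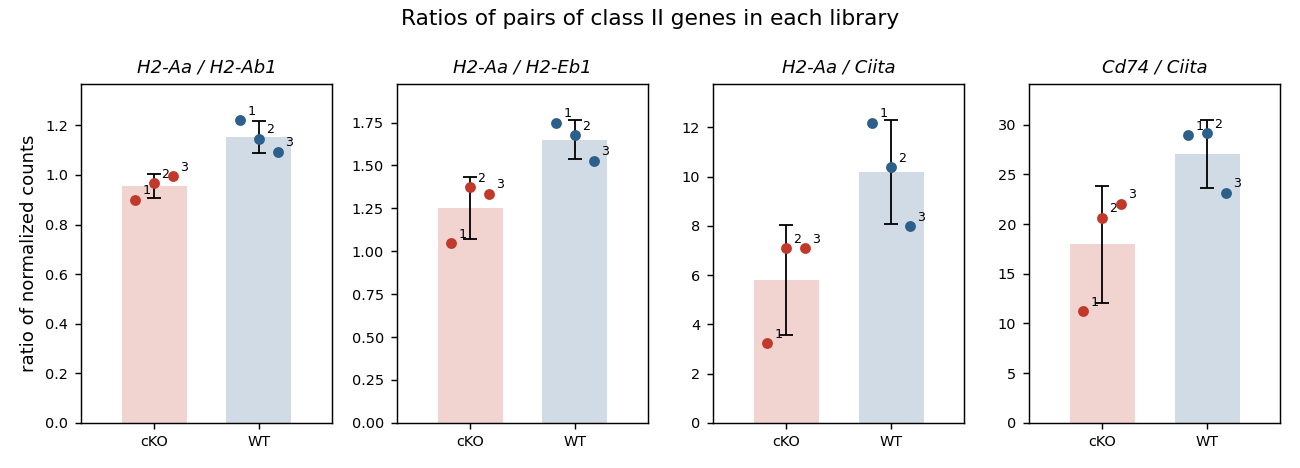
Ratios of normalized counts for 4 pairs of class II genes in each library; points are libraries labelled by replicate number, bars are genotype means and error bars are SD (n = 3). All 3 cKO points lie below all 3 WT points in each panel; for H2-Aa/H2-Ab1 the highest cKO point is 0.994 and the lowest WT point is 1.09.

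The class II stretch of chromosome 17 also holds genes of the class I pathway, which shows peptides from within the cell to CD8+ T cells. Of the 18 genes listed between H2-Oa and H2-Eb1, 14 were tested. Between H2-DMb1 and H2-Ob lie the proteasome genes Psmb9 and Psmb8 and the peptide transporter genes Tap1 and Tap2, of which Psmb8 and Tap2 were named here after their values were seen. Psmb9 was at 1836, 1405 and 1873 normalized counts in cKO and 1078, 1170 and 1252 in WT, with a log2 fold change of 0.54 (SE 0.13, adjusted p = 0.211), and Tap1 was at 4545, 2298 and 3683 in cKO and 1947, 2040 and 2358 in WT (0.68, SE 0.25, adjusted p = 0.326). Psmb8 (0.35, adjusted p = 0.310) and Tap2 (0.30, adjusted p = 0.276) had every cKO library above every WT library, as Psmb9 had, whereas cKO2 and WT3 overlapped for Tap1. Brd2, a chromatin reader gene in the same stretch that was also named after its values were seen, had a log2 fold change of 0.01. Thus Psmb9, Tap1, Psmb8 and Tap2 had 95% intervals above 0, not adjusted for the number of genes. Over all genes, 6.91% were higher at an unadjusted p under 0.05. The 7 class II members on either side had intervals that included 0, and the difference between these sets was not tested. Class I chain genes outside the stretch were looked up after these values were seen. Intervals included 0 for H2-K1, H2-D1, H2-Q4, H2-Q6, H2-Q7 and H2-M3, and lay above 0 for B2m, H2-T22 and H2-T23. Psmb9 and Tap1 overlap at their ends in the table, and whether the counting used strand is not given.

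**Figure D4:**
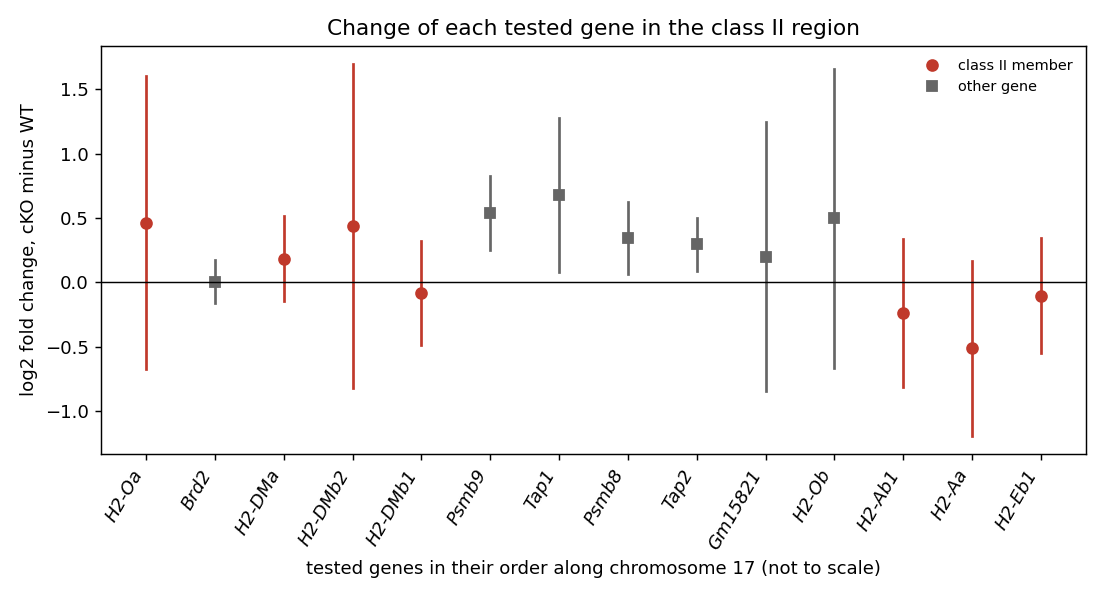
Log2 fold change, cKO minus WT, of the 14 tested genes of the class II stretch in chromosomal order; points are estimates and lines are 95% intervals from limma (3 libraries per genotype). Psmb9, Tap1, Psmb8 and Tap2 have intervals above 0, and all 7 class II members in the stretch have intervals that include 0.

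Over the whole class I list, 12 of 23 genes had an unadjusted p under 0.05, all higher in cKO (6.91% of all genes were), 11 had every cKO library above every WT library (10.5% of all genes had), and the median log2 fold change was 0.30. None passed an adjusted p of 0.05 by limma. With libraries weighted by their fit (array weights), only the class I genes named here were looked up. Psmb9 (0.0212), H2-T23 (0.0313), Psmb8 (0.0394), Psme2 (0.0419) and Nlrc5 (0.0426) passed, and Tap1 (0.0599) and Tap2 (0.0726) did not. Over all 16246 genes, 262 passed as higher and 369 as lower in that setting. It weighted cKO3 at 4.39, cKO1 at 0.414 and cKO2 at 0.562, so the cKO group rested mostly on cKO3. Psme2, a subunit of the proteasome activator, was at 2205, 1805 and 2182 normalized counts in cKO and 1122, 1363 and 1638 in WT (0.60, adjusted p = 0.215). H2-T23, which encodes the nonclassical molecule Qa-1, was at 3820, 4094 and 4393 in cKO and 3258, 3155 and 3500 in WT (0.31, adjusted p = 0.245). Nlrc5 is to class I genes what Ciita is to class II genes, and was named after its values were seen. It was at 1361, 898 and 1259 in cKO and 822, 873 and 879 in WT, with a log2 fold change of 0.43 (SE 0.15, adjusted p = 0.310) near that of Ciita, but without overlap. Without cKO2, Nlrc5 had a log2 fold change of 0.61 and an adjusted p of 0.0457, and Psmb9 and Tap1 had 0.67 and 0.96 with adjusted p-values of 0.0388 and 0.0328, whereas Ciita had 0.49 with an adjusted p of 0.210. Without cKO1 the log2 fold changes were 0.31 for Nlrc5 (adjusted p = 0.442), 0.48 for Psmb9 (0.223), 0.46 for Tap1 (0.458) and 0.30 for Ciita (0.563).

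Among 12 genes of endosomal processing, 4 had an unadjusted p under 0.05, all higher in cKO (6.91% of all genes were), 5 had every cKO library above every WT library (10.5% of all genes had) and 0 had every one below. The median log2 fold change was 0.22, and 0 passed an adjusted p of 0.05 by limma. Sppl2a, the protease that removes the last membrane stub of Cd74, was at 8720, 6361 and 7600 normalized counts in cKO and 5077, 5345 and 5161 in WT, a log2 fold change of 0.53 (SE 0.12, adjusted p = 0.194, 0.0388 without cKO2, 0.162 without cKO1 and 0.0180 with array weights). Cathepsin B (Ctsb) was at 10761, 10635 and 10181 in cKO and 9125, 8224 and 8918 in WT, a log2 fold change of 0.27 (SE 0.08, adjusted p = 0.264). Lgmn, a legumain gene that starts the cutting of Cd74, was at 2343, 1914 and 1746 in cKO and 1667, 1069 and 1350 in WT, a log2 fold change of 0.57 (SE 0.18, adjusted p = 0.284). These proteases also work outside antigen presentation and are used by many cell types.

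Costimulatory genes, which antigen-presenting cells use beside class II, had a median log2 fold change of 0.55 over the 8 tested of 9 listed, and 1 had an unadjusted p under 0.05 (14.0% of all genes did), a share near that of all genes. That gene was Cd80, at 78.6, 49.7 and 55.7 normalized counts in cKO and 41.5, 27.0 and 35.9 in WT (0.79, SE 0.28, adjusted p = 0.310), with every cKO library above every WT library. Its partner Cd86 was at 149, 79.6 and 113 in cKO and 81.0, 72.9 and 78.9 in WT (0.50, adjusted p = 0.404), and Cd83, which steadies class II at the surface, was at 253, 264 and 198 in cKO and 170, 135 and 234 in WT (0.43, adjusted p = 0.416). Cd86 and Cd83 overlapped between the genotypes.

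The members did not share 1 pattern. The mean over the 9 of the log2 difference from the WT mean was -0.04, -0.05 and 0.17 in cKO and -0.12, -0.15 and 0.26 in WT. It overlapped between the genotypes and was highest in WT3, followed by cKO3. The genes most like that mean over the 6 libraries by Pearson's r, given as a description, were the pseudogene Gm21092 (0.995), the antisense gene Gm10138 (0.983), the cell cycle inhibitor gene Cdkn1b (0.981), the cilium gene Rpgrip1 (0.978) and the catenin gene Ctnnd1 (0.973). They were the closest of 16246 genes and overlapped between the genotypes, with log2 fold changes from -0.05 to 0.04.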

How the data were processed

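RNA sequencing of colonic tissue, with 3 cKO and 3 WT libraries, was analysed from 1 table of 27202 genes. The authors had scaled the reads of each gene by a size factor for each library, and deposited these normalized counts as the signal of the gene. They also deposited their own genotype means, log2 fold changes, p-values and adjusted p-values from comparing cKO with WT, which were not used. The submitters' processing notes name HISAT2 2.0.5, featureCounts 1.5.0-p3 and a human build, whereas the coordinates are those of GRCm38. Genes averaging 10 or more over the 6 libraries entered the test (16246), as log2(value + 1), and limma 3.58.1 (trend and robust, R 4.3.3) was run on all of them, with p-values adjusted over these genes by Benjamini-Hochberg and a threshold of 0.05. A test for these data is not given in the sources used here. Values behaved as whole multiples of 1 step per library, but a step was not shown to be 1 read, so no count test was run.

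Members and lists were chosen with earlier results of these data known, and the lists were written from general knowledge. Named were every member, the 3 genes with the smallest unadjusted p of each pathway list, the 2 with the highest mean of the B cell, dendritic cell, macrophage and epithelial lists, the 5 genes most like the mean of the members, and Nedd4l; some of these genes are not reported here. For 2 listed genes the symbol had been turned into a date, and they were matched by identifier.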

Additional observations from a re-analysis of the deposited data

How the results depend on the processing

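Over 14 alternatives, 0 of the 126 values of the 9 members passed the threshold (lowest adjusted p 0.126), and 115 kept their direction. With array weights the log2 fold changes that changed sign were H2-Ab1 0.059, H2-Eb1 0.15, H2-DMb1 0.16, Cd74 0.044, H2-DMb2 -0.11, H2-Oa -0.071, H2-Ob -0.056, Cd79a -0.35, Itgax 0.20 and Itgae 0.058; the weights were lowest for cKO1 (0.414) and highest for cKO3 (4.39). Leaving out 1 library at a time gave log2 fold changes of H2-Ab1 -0.45 to 0.033, H2-Eb1 -0.29 to 0.084, H2-DMb1 -0.26 to 0.086, H2-DMb2 -0.0083 to 0.77, H2-Oa -0.010 to 0.85, Cd79a -0.16 to 0.53, Itgax -0.19 to 0.10, Itgae -0.43 to 0.088 and Csf1r -0.088 to 0.29. Without cKO1 the sign changed for all of these but Csf1r, which changed without WT2. Itgax also changed sign without cKO2 or WT3. Over all genes, 23 were lower and 7 higher with no filter on low values, 369 and 262 with array weights (2122 and 2084 at an unadjusted p under 0.05), and 0 to 52 and 0 to 70 when 1 library was left out, with 22 and 2 without cKO1 and 52 and 70 without cKO2. Genes with an unadjusted p under 0.05 that were lower numbered 740 to 1424 when 1 library was left out. Members higher at an unadjusted p under 0.05 numbered 1 with no filter (Ciita), 2 with array weights (Ciita and H2-DMa), 1 with the replicate block (Ciita) and 0 to 1 when 1 library was left out (Ciita, without cKO2 or WT3), and members lower numbered 0 to 2, which were H2-Aa and Cd74 without cKO3. With array weights Tgtp2 (adjusted p 0.0313), Gbp3 (0.0262) and Ifngr2 (0.0384) also passed the threshold. The cause of these changes was not tested. Same-numbered libraries of the 2 genotypes did not deviate together (correlations -0.03, -0.09 and -0.06), so the numbers were not taken to pair libraries, and the block changed no call of a member at the adjusted threshold. The edgeR and DESeq2 alternatives were not run.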

Other observations

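Markers of further cell types that can carry class II or act on the cells that do were examined; these genes are named with their values already in view. Of the 5 monocyte markers, 4 had an unadjusted p under 0.05 and every cKO library above every WT library (6.91% and 10.5% of all genes did), and the median log2 fold change was 1.03. Ly6c2, a surface marker of inflammatory monocytes, was at 396, 427 and 395 normalized counts in cKO and 165, 81.9 and 165 in WT, and the chemokine receptor gene Ccr2 was at 374, 261 and 496 in cKO and 221, 120 and 180 in WT, while Cd14 overlapped. The 8 T cell markers, which stand for the cells that read class II, held 0 genes with an unadjusted p under 0.05 (14.0% of all genes had one). Plasma cells switch Ciita off, and of their 6 markers 0 had an unadjusted p under 0.05, against the same 14.0% of all genes. None of these lists held a gene past an adjusted p of 0.05 by limma.

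The library cKO1 had the highest levels of further genes of inflamed tissue, with cKO3 next in some. Cxcl13, the chemokine that draws B cells into follicles, was at 2242 normalized counts in cKO1 and between 257 and 474 in the other 5 libraries; it made up most of the sum of the 5 lymphoid stroma markers, of which Glycam1 was highest in cKO2. The neutrophil gene S100a8 was at 2708 in cKO1, 31.0 in cKO2 and 417 in cKO3, and between 12.8 and 38.7 in WT, whereas Ly6g of the same list was at 2486, 2832 and 2200 in cKO and 2829, 3136 and 3064 in WT. Of the 6 fibroblast markers, 3 had an unadjusted p under 0.05 and every cKO library above every WT library (6.91% and 10.5% of all genes did). The sum of the 6 was 42446, 20966 and 22452 in cKO and 18057, 10564 and 13330 in WT. The part of these differences in the class II levels of cKO1 was not tested.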
